A study of Homo sapiens with 6 samples.

Results

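Respiratory complex I, the NADH:ubiquinone oxidoreductase of the mitochondrial inner membrane, was described gene by gene after knockdown of CBX7 by a short hairpin RNA. Its genes were taken as the protein-coding genes of the deposited count table whose names begin with NDUF. NDUFA4 and NDUFA4L2 were left out, since NDUFA4 is now counted with complex IV. This gave 46 of the 58735 genes in the table, namely 37 subunits, 8 assembly factors of the NDUFAF series and the readthrough locus NDUFC2-KCTD14. Of these, 44 passed the filter on low counts and were tested. NDUFV2 and NDUFC2-KCTD14 did not pass.

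Complex I takes electrons from NADH, passes them along a chain of iron-sulfur clusters to ubiquinone, and pumps protons across the inner membrane. Its peripheral arm holds an NADH-oxidising part, the N module, and a quinone-reducing part, the Q module. Its membrane arm has a proximal and a distal part. The core subunits of the peripheral arm are nuclear genes, those of the membrane arm lie on the mitochondrial chromosome, and many nuclear accessory subunits surround both. Assembly factors help to build the parts and to join them, and are not in the finished enzyme.

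The cells were 786-O, an established human renal cancer cell line. There were 3 libraries of cells with the hairpin against CBX7 (sh-CBX7) and 3 of cells with a control hairpin (sh-Control). Both groups were the same line, and the labels give no other agent, time or age. CBX7 belongs to the chromobox subunits of the Polycomb repressive complexes. The labels name 1 cell line and do not say how many hairpins, clones or cultures were used. The p-values therefore cover the variation among these 6 libraries alone, and it may be technical.

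Library totals ran from 16384151 to 18868874 counts. CBX7 had 7.44 ± 0.67 CPM in sh-CBX7 and 12.2 ± 0.98 CPM in sh-Control (SD, n = 3 each; log2 fold change -0.71, SE 0.13, edgeR adjusted p = 5.41e-05), so its transcript was reduced but still detected. RNF26, a RING finger gene named in the series title, had 54.8 ± 2.20 CPM in sh-CBX7 and 100.5 ± 10.9 CPM in sh-Control (log2 fold change -0.88, SE 0.07, edgeR adjusted p = 1.22e-09). All 6 fixed markers of the line (PAX8, EPAS1, KRT8, KRT18, CA12 and VIM) were detected, with summed levels of 3641 to 3858 CPM in sh-CBX7 and 3654 to 3777 CPM in sh-Control; KRT8 and KRT18 rose, and PAX8 and CA12 fell. The immune markers PTPRC and CD3E and the endothelial marker CDH5 had 0 counts in every library. Summed levels were 0.955 to 1.86 CPM in sh-CBX7 and 1.21 to 2.04 CPM in sh-Control for 4 immune markers. They were 2.48 to 3.40 CPM in sh-CBX7 and 1.62 to 2.33 CPM in sh-Control for 3 endothelial markers, of which PECAM1 rose (edgeR adjusted p = 0.0349). That call was lost without sh-CBX7 replicate 1 (edgeR adjusted p = 0.0986), sh-CBX7 replicate 3 (0.0902), sh-Control replicate 1 (0.128) or sh-Control replicate 2 (0.0787). They were 3.56 to 3.82 CPM in sh-CBX7 and 5.59 to 5.88 CPM in sh-Control for 4 fibroblast markers, of which COL1A1 fell. The part of these markers in the results below was not tested. In bulk RNA, fewer cells of a type and less RNA per cell cannot be told apart.

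Complex I genes were more often lower than higher in sh-CBX7. Of the 44 tested, 18 fell, 2 rose and 24 did not pass the test. The assembly factor NDUFAF3 fell furthest, to a level 2.42-fold lower, while NDUFAF1, also an assembly factor, rose. The other 17 genes that fell did so by small amounts, with log2 fold changes from -0.53 to -0.17. Over all 14573 tested genes, 53.3% were called at an edgeR adjusted p below 0.05, 26.1% higher and 27.2% lower in sh-CBX7. Among the complex I genes, 4.545% were called higher and 40.91% lower, a smaller share than the background in the first direction and a larger one in the second. The median log2 fold change was -0.17 for the complex I genes and -0.01 for all tested genes. Past a log2 fold change of 1, 5.23% of all tested genes were called higher and 3.3% lower; no complex I gene was among the first and 1, NDUFAF3, among the second. No test was run over the group as a whole.

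The 3 sh-CBX7 libraries lay below the 3 sh-Control libraries for 19 of the 44 genes and above them for 2. The groups overlapped for 23 (52.27%). Over all tested genes, 59% had groups that did not overlap, in either direction, a larger share than among the complex I genes. The log2 fold change was negative for 35 genes and positive for 9. Summed over the 46 genes, the level was 2916, 3087 and 3117 CPM in sh-CBX7 and 3624, 3387 and 3536 CPM in sh-Control, so the groups did not overlap. The 46 genes took 0.305 ± 0.012% of all counts in sh-CBX7 and 0.350 ± 0.007% in sh-Control (SD, n = 3 each). The mitochondrial chromosome took 2.63 ± 0.05% of all counts in sh-CBX7 and 2.64 ± 0.28% in sh-Control, which differed by less than the spread between libraries.

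**Figure D1:**
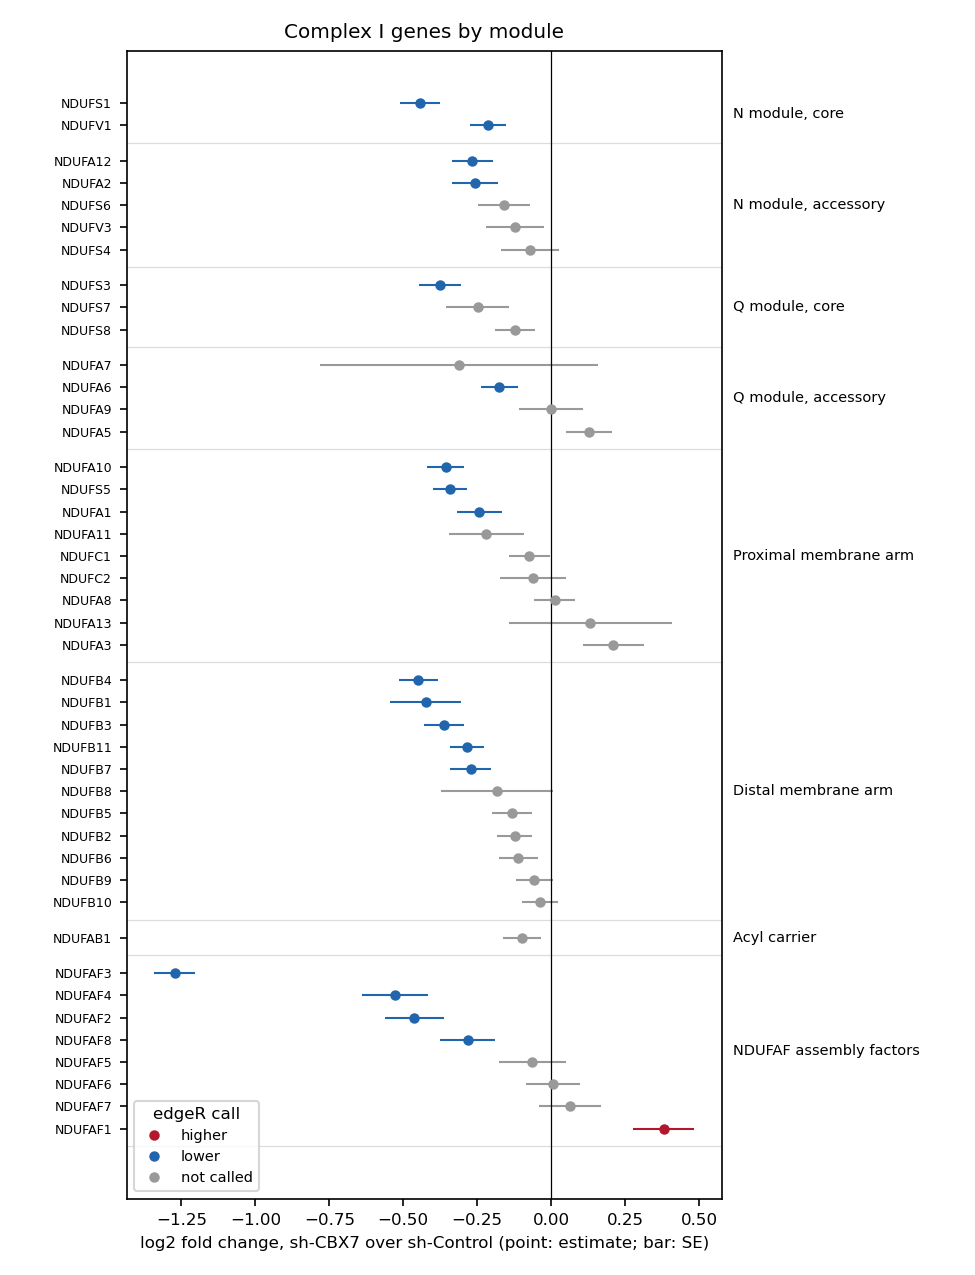
Log2 fold change in sh-CBX7 over sh-Control for the tested complex I genes named in the text, grouped by module (points are estimates, bars are SE, and colours give the edgeR call). Most points lie left of 0, NDUFAF3 at -1.27 stands furthest left, and NDUFAF1 at 0.38 lies to the right.

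The N module binds NADH and starts the electron chain. Both of its tested core subunits fell. NDUFS1, the largest core subunit, carries several iron-sulfur clusters. It had 71.5, 74.4 and 63.9 CPM in the sh-CBX7 libraries and 93.5, 95.7 and 96.2 CPM in the sh-Control libraries. The groups were well apart, with a log2 fold change of -0.44 (edgeR SE 0.07, adjusted p = 6.36e-06). NDUFV1, which holds the flavin and the NADH site, had 153.7, 159.5 and 166.9 CPM in sh-CBX7 and 197.0, 173.0 and 187.0 CPM in sh-Control. Here the gap was narrow, from 166.9 in the highest sh-CBX7 library to 173.0 CPM in the lowest sh-Control library, and the log2 fold change was -0.21 (SE 0.06, edgeR adjusted p = 0.00499).

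Summed, the core subunits of the N module had 225.5, 234.1 and 231.1 CPM in sh-CBX7 and 291.3, 269.5 and 283.5 CPM in sh-Control, without overlap. The third core subunit, NDUFV2, which carries an iron-sulfur cluster beside the flavin, had 6, 4 and 5 counts in sh-CBX7 and 14, 14 and 6 counts in sh-Control. It was therefore too low to be tested. Of the 5 accessory subunits, NDUFA12 (log2 fold change -0.27, edgeR adjusted p = 0.00305) and NDUFA2 (-0.26, edgeR adjusted p = 0.00674) fell. NDUFS6, a zinc-binding subunit, NDUFV3 and NDUFS4 had log2 fold changes of -0.16, -0.12 and -0.07 and were not called. NDUFS6 ranged from 119.1 to 171.1 CPM in sh-CBX7 and from 153.4 to 174.4 CPM in sh-Control, so its groups overlapped. Without sh-CBX7 replicate 3, NDUFS6 (-0.29, edgeR adjusted p = 0.00969) and NDUFV3 (-0.25, edgeR adjusted p = 0.0468) were called. Without sh-Control replicate 2, NDUFS6 was called as well (-0.21, edgeR adjusted p = 0.0450). Length and GC content offsets gave lower calls for NDUFS6 (-0.21, edgeR adjusted p = 0.0151) and NDUFS4 (-0.22, 0.0332).

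The Q module leads electrons to ubiquinone. NDUFS3, a core subunit of this module, had 52.2, 53.1 and 50.4 CPM in sh-CBX7 and 73.0, 61.8 and 67.3 CPM in sh-Control. It fell, with a log2 fold change of -0.38 (edgeR SE 0.07, adjusted p = 0.000113) and no overlap.

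NDUFS7, which carries the last cluster before ubiquinone, had 39.4, 35.8 and 33.1 CPM in sh-CBX7 and 53.2, 37.7 and 37.9 CPM in sh-Control. The groups overlapped, and the difference did not pass the test (log2 fold change -0.25, SE 0.11, edgeR adjusted p = 0.0542). It was called when sh-CBX7 replicate 1 (edgeR adjusted p = 0.0414), sh-Control replicate 2 (0.00725) or sh-Control replicate 3 (0.0172) was left out. NDUFS8, another iron-sulfur subunit of the module, had 193.1, 182.9 and 180.9 CPM in sh-CBX7 and 224.0, 179.7 and 202.4 CPM in sh-Control. It overlapped too and was not called (log2 fold change -0.12, SE 0.07, edgeR adjusted p = 0.137), except without sh-Control replicate 2 (-0.20, edgeR adjusted p = 0.00798).

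Among the 4 accessory Q subunits, NDUFA6 fell (log2 fold change -0.17, edgeR adjusted p = 0.0248). That call was lost without sh-CBX7 replicate 1 (edgeR adjusted p = 0.146), without sh-Control replicate 2 (0.0653), without sh-Control replicate 3 (0.0611) and with upper quartile scaling (0.103). NDUFA5 (0.13) and NDUFA7 (-0.31, SE 0.47) were not called, though NDUFA5 was without sh-Control replicate 2 (0.20, edgeR adjusted p = 0.0409). NDUFA9, which sits where the arms meet, was the member nearest to 0. It had 15.1, 15.3 and 15.9 CPM in sh-CBX7 and 17.0, 14.96 and 14.4 CPM in sh-Control, a log2 fold change of 0.00 (SE 0.11).

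**Figure D2:**
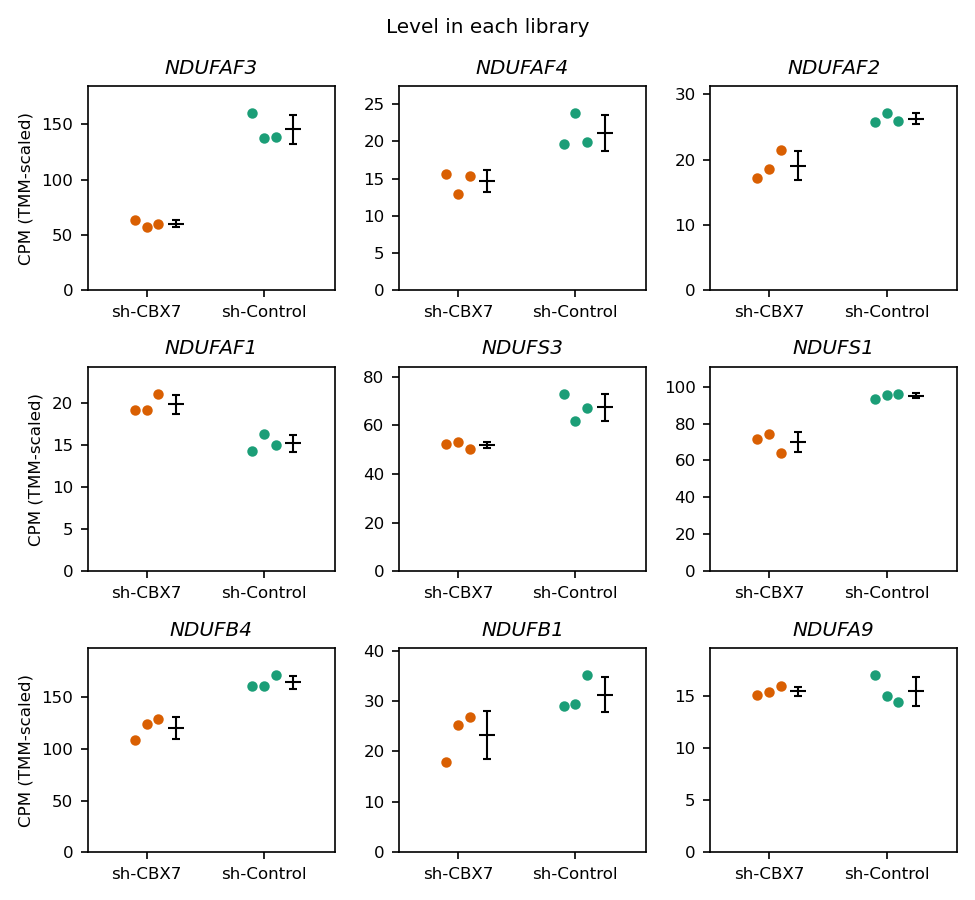
Level of 9 complex I genes in each library, in CPM on linear axes from 0 (dots are libraries, bars are mean ± SD, n = 3 per group, sh-CBX7 left and sh-Control right). NDUFAF1 lies higher in sh-CBX7, NDUFA9 overlaps, and the other 7 lie lower in sh-CBX7 without overlap.

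In the membrane arm, 8 of 20 accessory subunits fell and none rose, although NDUFA3 was called higher under some alternatives. In the distal part 5 of 11 fell. NDUFB4 had 108.3, 124.0 and 128.1 CPM in sh-CBX7 and 160.5, 160.0 and 171.3 CPM in sh-Control. The groups were apart by over 30 CPM, with a log2 fold change of -0.45 (edgeR SE 0.07, adjusted p = 4.49e-06). NDUFB1, a small subunit, had 17.9, 25.2 and 26.7 CPM in sh-CBX7 and 28.97, 29.5 and 35.2 CPM in sh-Control. It fell too, with a narrower gap and a log2 fold change of -0.42 (edgeR SE 0.12, adjusted p = 0.00458). NDUFB3 (log2 fold change -0.36), NDUFB11 (-0.28) and NDUFB7 (-0.27) also fell, without overlap of the groups. NDUFB5 (-0.13, edgeR adjusted p = 0.105) and NDUFB2 (-0.12, edgeR adjusted p = 0.0902) were below sh-Control in every library but did not pass the test. NDUFB8, NDUFB6, NDUFB9 and NDUFB10 had log2 fold changes from -0.18 to -0.04 and overlapping groups. Under length and GC content offsets, NDUFB6 (-0.26, edgeR adjusted p = 0.000154), NDUFB2 (-0.15, 0.00892) and NDUFB5 (-0.14, 0.0338) were called lower.

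In the proximal part 3 of 9 fell. NDUFA10, which resembles nucleoside kinases, had 95.97 ± 5.59 CPM in sh-CBX7 and 123.0 ± 6.04 CPM in sh-Control (SD, n = 3 each; log2 fold change -0.36, SE 0.06, edgeR adjusted p = 5.64e-05). NDUFS5, on the intermembrane-space face, had 229.2 ± 16.7 CPM in sh-CBX7 and 290.4 ± 1.69 CPM in sh-Control (log2 fold change -0.34, SE 0.06, edgeR adjusted p = 3.42e-05). NDUFA1, a small membrane subunit, had a log2 fold change of -0.24 (edgeR adjusted p = 0.00878). The call of NDUFA1 was lost without sh-CBX7 replicate 1 (edgeR adjusted p = 0.0882) and without sh-Control replicate 3 (0.0585).

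The other proximal subunits were not called. NDUFA11, NDUFC1 and NDUFC2 had log2 fold changes of -0.22, -0.07 and -0.06, and NDUFA8, NDUFA13 and NDUFA3 had 0.01, 0.13 and 0.21. NDUFA3 ranged from 45.7 to 67.3 CPM in sh-CBX7 and from 42.8 to 51.5 CPM in sh-Control. It was called higher without sh-CBX7 replicate 1 (0.34, edgeR adjusted p = 0.00926), without sh-Control replicate 1 (0.26, edgeR adjusted p = 0.0192) and with upper quartile scaling (0.26, edgeR adjusted p = 0.0337). NDUFA11 was called lower without sh-CBX7 replicate 3 (-0.37, edgeR adjusted p = 0.0219). NDUFAB1, the mitochondrial acyl carrier protein, which is shared with fatty acid synthesis, had a log2 fold change of -0.10 and was not called. Both NDUFAB1 (-0.24, edgeR adjusted p = 0.000227) and NDUFC1 (-0.18, 0.00569) were called lower under length and GC content offsets.

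**Figure D3:**
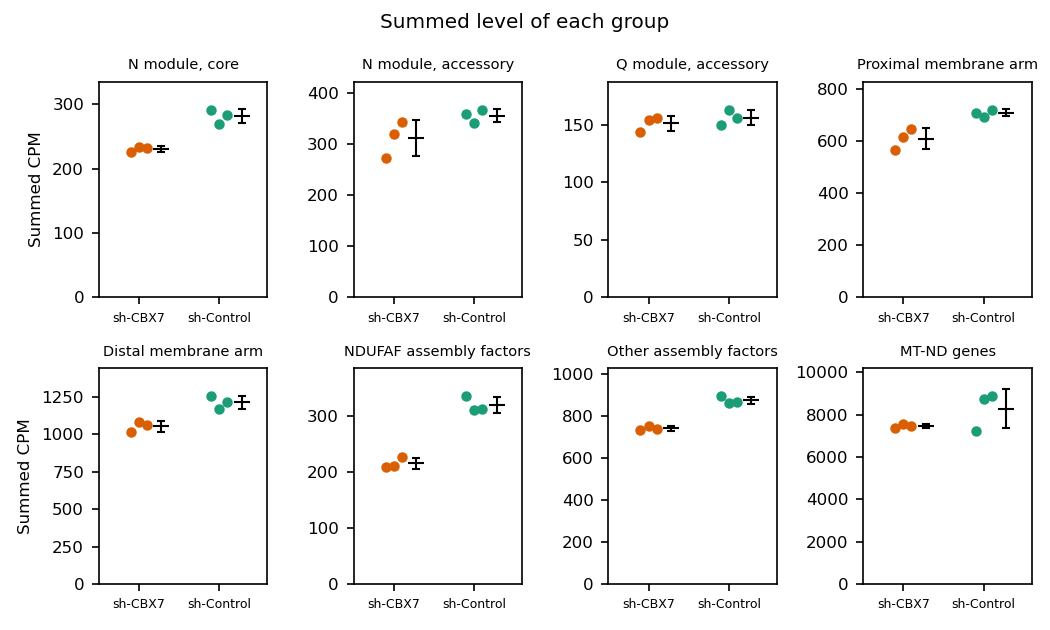
Summed level of 8 groups of complex I genes in each library, in CPM on linear axes from 0 (dots are libraries, bars are mean ± SD, n = 3 per group, sh-CBX7 left and sh-Control right). The NDUFAF sums lie at 209.2 to 227.3 CPM in sh-CBX7 and 311.0 to 336.2 CPM in sh-Control. The sums of the accessory N subunits, the accessory Q subunits and the MT-ND genes overlap.

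The assembly factors held the largest decrease of the set. NDUFAF3 acts early, in building the Q module, in a pair with NDUFAF4. NDUFAF3 had 63.4, 57.1 and 59.7 CPM in sh-CBX7 and 160.4, 137.3 and 138.1 CPM in sh-Control. Its highest sh-CBX7 library was less than 50% of its lowest sh-Control library, with a log2 fold change of -1.27 (edgeR SE 0.07, adjusted p = 9.39e-13). Its partner NDUFAF4 had 15.6, 12.9 and 15.4 CPM in sh-CBX7 and 19.6, 23.9 and 19.9 CPM in sh-Control. It fell by less, with no overlap and a log2 fold change of -0.53 (edgeR SE 0.11, adjusted p = 0.000397).

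NDUFAF2, a late-acting relative of NDUFA12, had 17.2, 18.6 and 21.5 CPM in sh-CBX7 and 25.7, 27.2 and 26.0 CPM in sh-Control. The groups did not overlap, and the log2 fold change was -0.46 (SE 0.10, edgeR adjusted p = 0.00046). NDUFAF8, the partner of NDUFAF5, also fell (log2 fold change -0.28, edgeR adjusted p = 0.0146), but its groups overlapped, at 41.8 to 58.4 CPM in sh-CBX7 and 54.0 to 63.3 CPM in sh-Control. That call was lost without sh-CBX7 replicate 1 (edgeR adjusted p = 0.144), without sh-CBX7 replicate 2 (0.0643) and without sh-Control replicate 3 (0.0560).

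NDUFAF1, a part of the MCIA complex that builds the membrane arm, went the other way. It had 19.3, 19.3 and 21.2 CPM in sh-CBX7 and 14.4, 16.3 and 15.1 CPM in sh-Control. Each sh-CBX7 library was above each sh-Control library, with a log2 fold change of 0.38 (edgeR SE 0.10, adjusted p = 0.00354). NDUFAF5 (log2 fold change -0.06), which hydroxylates NDUFS7, NDUFAF6 (0.01) and NDUFAF7 (0.06), a methyltransferase, were not called. The 8 NDUFAF genes together had 215.8 ± 10.04 CPM in sh-CBX7 and 320.4 ± 13.7 CPM in sh-Control (SD, n = 3 each), and NDUFAF3 made up the larger part of that difference.

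Per length, the order of the members was led by short transcripts. In FPKM, a count scaled for exon length and library size, NDUFS5 stood at 418.3 ± 30.4 in sh-CBX7 and 530.0 ± 3.09 in sh-Control, and NDUFB7 followed at 300.0 ± 7.93 in sh-CBX7 and 362.4 ± 42.5 in sh-Control (SD, n = 3 each). NDUFB10 came next, at 111.1 ± 1.46 FPKM in sh-CBX7 and 114.1 ± 5.87 FPKM in sh-Control. This scale divides by the union of all annotated exons. Divided by the length of 1 main coding transcript, NDUFB9 took the third place, at 267.8 FPKM in sh-CBX7 and 278.4 FPKM in sh-Control.

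The lowest subunits had a shared annotation. In GENCODE 29, whose positions match those of all 58735 genes in the table, 7 of the 37 subunits share 74 to 100% of their coding bases with another gene on the same strand. They are NDUFV2, NDUFA7, NDUFA13, NDUFB8, NDUFC2, NDUFA9 and NDUFA11. These were the 7 lowest subunits in CPM, with means over the 6 libraries of 0.47 to 18.1 CPM. The other 30 subunits share 0% of their coding bases in this way and had 23.2 to 260 CPM. NDUFC2-KCTD14, which shares 86.83% of the coding bases of NDUFC2, had 0 counts in every library. None of the 6 tested subunits of this kind was called, and all 20 calls were among the 38 other tested genes. How reads over more than 1 gene were counted is not given in the sources used here, so these low values are levels in the table, and the part of the overlap in them was not tested.

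**Figure D4:**
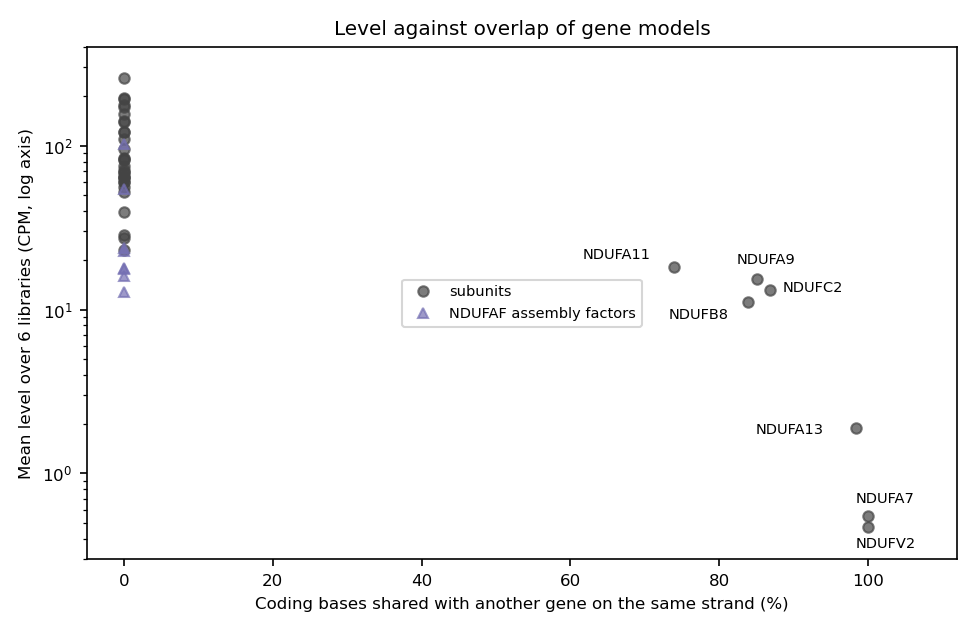
Mean level over the 6 libraries of each complex I gene with any count, in CPM on a log axis, against the percent of its coding bases shared with another gene on the same strand (circles are subunits, triangles are assembly factors). The 7 labelled subunits, at 74 to 100%, lie below the 30 subunits at 0%.

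Overlap on the other strand did not go with low levels. In 7 members, 22.61 to 83.37% of the main transcript lies opposite another gene, and these had 39.5 to 194.2 CPM. NDUFAF3 is one of them, with 22.61% of its main transcript opposite DALRD3. DALRD3 had 36.2 ± 2.70 CPM in sh-CBX7 and 46.8 ± 6.63 CPM in sh-Control (SD, n = 3 each; log2 fold change -0.37, SE 0.09, edgeR adjusted p = 0.00164). Its part in the NDUFAF3 counts was not tested. NDUFB11 lies opposite RBM10 over 45.82% of its main transcript, and RBM10 had a log2 fold change of -0.97. NDUFA1 lies opposite RNF113A over 44.52%, and RNF113A had a log2 fold change of 0.46, against -0.24 for NDUFA1. Of the 24 tested members whose main transcript overlaps no other gene, 2 rose and 10 fell, with a median log2 fold change of -0.13. Pseudogenes named after NDUF genes took 42 to 81 counts per library, against 51118 to 61607 counts for the members.

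Promoter sequences were read from RefSeq on GRCh38.p14 for 40 of the 46 genes, from 250 bases before to 50 after the gene start. They were searched on both strands for short letters of 3 factors known to act on genes of the respiratory chain. The NRF1 letters GCGCATG were in 9 members (22.5%) and in 6.817% of the promoters of all 15843 coding genes. The ETS letters CCGGAAG, used by GABP, were in 7 members (17.5%) and in 16.53% of all. The YY1 letters AAGATGG were in 10 members (25%) and in 7.896% of all. In 9 of these 10 they read along the gene and began 9 to 25 bases after its start, NDUFA5 being the other. In NDUFA8, NDUFAF5 and NDUFB4 the NRF1 letters were on both strands and overlapped. These matches are letters in a window, with no measurement of binding. The shares over all coding genes include genes whether or not they were expressed in these cells. Shares among the tested genes alone were not computed. The windows of the members that fell are shown because they place the letters beside the calls, first for NRF1 and then for YY1. They run 5′ to 3′ along the gene, with the motif in capitals (on the opposite strand in the NRF1 window of NDUFA6).

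NDUFB4, chr3:120596167-120596196, plus strand: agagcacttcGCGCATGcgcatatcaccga
NDUFAF4, chr6:96897866-96897895, minus strand: cctcacttgtGCGCATGctccgggtgtccc
NDUFA6, chr22:42090918-42090947, minus strand: tgtagatgagCATGCGCagcacccaccgtt
NDUFA12, chr12:95003664-95003693, minus strand: ccagcgaggcAAGATGGagttagtgcaggt
NDUFAF8, chr17:81239317-81239346, plus strand: ggacggacctAAGATGGcggcctccagggg
NDUFA6, chr22:42090728-42090757, minus strand: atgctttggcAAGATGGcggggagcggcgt

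Members with these letters were called lower or not called. Of the 9 with the NRF1 letters, NDUFAF4, NDUFB4 and NDUFA6 fell and 6 were not called, among them NDUFA8 (log2 fold change 0.01) and NDUFAF5 (-0.06). Of the 10 with the YY1 letters, NDUFAF8, NDUFA12 and NDUFA6 fell and 7 were not called. Of the 7 with the ETS letters, NDUFS1, NDUFAF4, NDUFS3, NDUFAF8, NDUFB7 and NDUFA1 fell and NDUFA13 was not called. Over all 44 tested members, 40.91% fell. Whether the letters go with the calls was not tested. The genes for these factors were themselves measured. NRF1 had 14.7 ± 0.75 CPM in sh-CBX7 and 20.9 ± 1.42 CPM in sh-Control (log2 fold change -0.50, SE 0.10, edgeR adjusted p = 0.000271). GABPB1, a GABP subunit, had a log2 fold change of -0.35 (edgeR SE 0.10, adjusted p = 0.00574). GABPA, also a GABP subunit, had a log2 fold change of -0.19 (edgeR SE 0.11, adjusted p = 0.141) and was not called. YY1 had 106.4 ± 2.03 CPM in sh-CBX7 and 94.0 ± 3.01 CPM in sh-Control (log2 fold change 0.18, SE 0.06, edgeR adjusted p = 0.0145). The YY1 call was lost without sh-CBX7 replicate 1 (edgeR adjusted p = 0.0570), without sh-CBX7 replicate 2 (0.0531) and without sh-Control replicate 3 (0.0920). PPRC1, a coactivator of NRF1, had 17.0 ± 0.64 CPM in sh-CBX7 and 40.3 ± 3.36 CPM in sh-Control (log2 fold change -1.25, SE 0.09, edgeR adjusted p = 1e-10). Of 9 such biogenesis regulators in all, 1 rose, 3 fell and 5 were not called. ESRRA was called higher without sh-Control replicate 1 (0.20, edgeR adjusted p = 0.00421). It was also called higher with upper quartile scaling (0.18, edgeR adjusted p = 0.0312) and under length and GC content offsets (0.15, 0.0128). TFAM, which packs and transcribes mitochondrial DNA, had a log2 fold change of -0.10 and was not called.

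The complex I subunits of the mitochondrial chromosome form the core of the membrane arm. Of the 7, 4 fell and 3 were not called. MT-ND5 had 718.8, 695.0 and 712.0 CPM in sh-CBX7 and 820.9, 1018.9 and 1002.7 CPM in sh-Control. It was lower in each sh-CBX7 library, with a log2 fold change of -0.42 (edgeR SE 0.06, adjusted p = 9.37e-06). MT-ND6 had 251.7, 295.2 and 305.1 CPM in sh-CBX7 and 320.9, 387.1 and 387.3 CPM in sh-Control (log2 fold change -0.36, SE 0.07, edgeR adjusted p = 0.000241). MT-ND4L (-0.29, edgeR adjusted p = 0.00576) and MT-ND4 (-0.19, edgeR adjusted p = 0.0133) were called lower but overlapped, since sh-Control replicate 1 lay at 606.3 CPM for MT-ND4L and 3212 CPM for MT-ND4, below the highest sh-CBX7 library. Without sh-Control replicate 3, MT-ND4L (edgeR adjusted p = 0.0558) and MT-ND4 (0.108) were no longer called, which left 2 of 7. MT-ND4L also lost its call in DESeq2 (adjusted p = 0.107) and MT-ND4 with upper quartile scaling (edgeR adjusted p = 0.0618). MT-ND1, MT-ND2 and MT-ND3 had log2 fold changes of 0.12, -0.07 and 0.16 and were not called. MT-ND1 was called higher with upper quartile scaling (0.17, edgeR adjusted p = 0.0159) and in the fit blocked on replicate number (0.12, edgeR adjusted p = 0.0498). MT-ND3 was called higher without sh-CBX7 replicate 1 (0.29, edgeR adjusted p = 0.00357), with the replicate block (0.15, edgeR adjusted p = 0.0109) and with no filter on low counts (0.15, edgeR adjusted p = 0.0244). MT-ND2 was called lower without sh-Control replicate 1 (-0.14, edgeR adjusted p = 0.00772) and under length and GC content offsets (-0.22, edgeR adjusted p = 3.69e-05).

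Of 15 complex I assembly factors with other names, 10 fell and none rose in the edgeR test. AIFM1, which takes part in the import of respiratory chain subunits, had 42.0 ± 1.31 CPM in sh-CBX7 and 72.3 ± 2.59 CPM in sh-Control (log2 fold change -0.78, SE 0.07, edgeR adjusted p = 1.45e-09). ECSIT, which works with NDUFAF1 in the MCIA complex, had 37.5 ± 2.85 CPM in sh-CBX7 and 54.9 ± 4.52 CPM in sh-Control (log2 fold change -0.55, SE 0.08, edgeR adjusted p = 4.2e-06), the opposite direction to NDUFAF1. TMEM126A (-0.50) and FOXRED1 (-0.47) fell as well. The median of the 15 was -0.25. Without sh-CBX7 replicate 1, LYRM2 (edgeR adjusted p = 0.0946), NUBPL (0.0667) and DMAC1 (0.129) lost their calls. LYRM2 lost its call in DESeq2 (adjusted p = 0.0764) and under several other alternatives as well. PYURF was called higher with upper quartile scaling (0.19, edgeR adjusted p = 0.0211). TMEM70 (-0.17, edgeR adjusted p = 0.0112) and TIMMDC1 (-0.19, edgeR adjusted p = 0.000485) were called lower under length and GC content offsets. Of 12 tested genes of iron-sulfur cluster synthesis, which supplies the core subunits, 2 rose (ISCA1 at 0.53 and ISCU at 0.43) and 5 fell, IBA57 (-0.71) and NFU1 (-0.34) among them. The count of 5 dropped to 3 without sh-CBX7 replicate 2 and with upper quartile scaling.

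The other respiratory complexes are given as the background for complex I. Of their 39 nuclear subunits tested, 29 fell, 1 rose and 9 were not called, with a median log2 fold change of -0.39, against -0.17 for the complex I subunits. Complex III had 8 lower of 9, complex IV 6 of 11 and complex V 13 of 15, with medians of -0.38, -0.23 and -0.46. Among the complex V genes that fell, ATP5ME had overlapping groups. Its call was lost in DESeq2 (adjusted p = 0.190) and without sh-CBX7 replicate 1 (edgeR adjusted p = 0.131). In complex II, SDHD had 16.8 ± 1.20 CPM in sh-CBX7 and 62.3 ± 0.18 CPM in sh-Control (log2 fold change -1.89, SE 0.08, edgeR adjusted p = 7.67e-15), SDHA fell (-0.39), SDHC rose (0.26) and SDHB was not called (0.02). Of 10 other mitochondrial genes, 7 fell, VDAC1 with a log2 fold change of -0.71 and TIMM44 was not called. TIMM44 was called higher under 7 alternatives, with log2 fold changes from 0.15 with the replicate block (edgeR adjusted p = 0.0375) to 0.26 under length and GC content offsets (edgeR adjusted p = 0.000163), among them the fit without sh-Control replicate 1 (0.18, edgeR adjusted p = 0.0164). NDUFA4, left out of the members, fell (-0.23, edgeR adjusted p = 0.0017), and NDUFA4L2 was too low to be tested. These differences between lists were not tested.

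**Figure D5:**
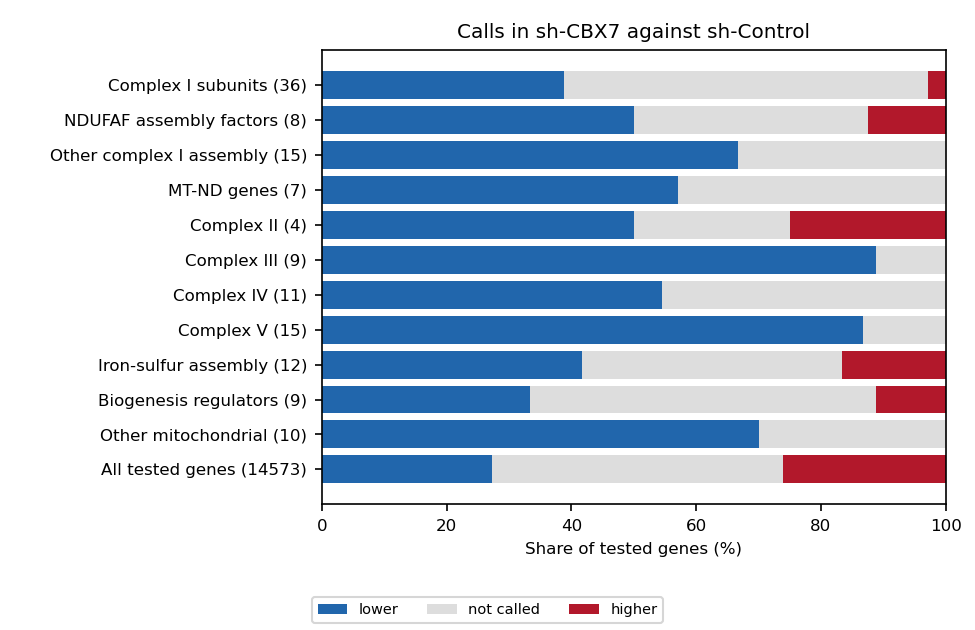
Share of tested genes called lower, not called or called higher in sh-CBX7 against sh-Control, in percent, for each list (number of tested genes in brackets). Complexes III and V show the largest shares of lower genes, at 8 of 9 and 13 of 15, against 14 of 36 complex I subunits and 27.2% of all tested genes.

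The libraries of a group did not deviate alike. Of the 44 tested members, sh-CBX7 replicate 1 was the lowest of its group for 28 and sh-CBX7 replicate 3 the highest for 25. In sh-Control, replicate 1 was the highest for 20 and replicate 2 the lowest for 23. Calls of NDUFAF3, NDUFAF1, NDUFB4, NDUFS1, NDUFS3 and the other members with no lost call named above did not rest on 1 library. For 42 members with a mean above 10 CPM, SEs on the log2 scale ran from 0.06 to 0.19. A p above the threshold does not show that a gene was unaltered at this precision.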

How the data were processed

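Read counts per gene from 6 poly-A selected RNA libraries were used, as the authors deposited them, without normalization. Per the labels' protocols the kit was directional; the submitters' processing notes list featureCounts 1.5.0-p3, HISAT2 2.0.5, Trimmomatic and FastQC, with no order and no strand setting. The notes name hg19, but the deposited starts, ends and lengths were those of GENCODE 29 on GRCh38 for all 58735 genes. The deposited columns say siCBX7 where the labels say sh-CBX7; they were matched by target and number.

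In R 4.3.3, filterByExpr of edgeR 4.0.16 left 14573 genes, which were TMM-scaled and compared with the quasi-likelihood test with no pairing. Benjamini-Hochberg adjustment ran over all tested genes, and p-values were called below 0.05. CPM and FPKM are TMM-scaled, FPKM with the deposited length. SE is the log2 fold change over the square root of F. The smallest p of an exact permutation of 3 against 3 is 0.1, so none was used. Libraries of a group correlated at 0.990 to 0.992 and differed beyond sampling noise, with a chi-square per gene of 2.85 to 9.23.

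Members and lists were chosen with earlier results of these data known. Values per library are given for the 8 called members with the largest change and a mean of at least 5 CPM, the member nearest to 0 and the core subunits; other lists give up to 4 genes by smallest p. Some values under this rule are not reported here. TFAM, ESRRA, GABPA, TIMM44, COX8A, ATP5ME, DALRD3, RBM10 and RNF113A fall outside that rule, as do LYRM2, NUBPL, DMAC1, PYURF, TMEM70 and TIMMDC1. All of these were chosen after their values were seen. Alternatives were DESeq2 1.42.0, limma 3.58.1 voom, other scalings and filters, length and GC content offsets, the replicate number as a block, and leaving out each library. The test was checked on simulated counts, with 100 genes changed by a log2 fold change of 0.5 and 100 by 1. The edgeR fit called 66% and 94% of these, and 0.0918% of 14165 unchanged genes. Far fewer genes were changed in the simulation than were called in these data, so its rates may not hold here.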

Additional observations from a re-analysis of the deposited data

How the results depend on the processing

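Of the 44 tested members, 28 kept their call under every alternative run, 16 lost or gained a call under at least 1, and 0 turned round in a call. Among the 28, the estimates of 7 members that were not called crossed 0 (NDUFA8, NDUFA9, NDUFA13, NDUFB8, NDUFB10, NDUFAF6 and NDUFAF7). The number of members called higher was 2, with 4 under length and GC content offsets (NDUFA3 and NDUFA5 added), 3 with the replicate block and 2 to 3 with 1 library left out. The number called lower was 18, with 25 under the offsets, 20 with the block and 16 to 21 with 1 library left out. The offsets added NDUFS6, NDUFS4, NDUFB2, NDUFB5, NDUFB6, NDUFC1 and NDUFAB1. The causes were not tested. The median log2 fold change of the members ran from -0.21 under the offsets to -0.12 with upper quartile scaling, and from -0.21 to -0.12 with 1 library left out. As a share of nuclear protein-coding counts, the members took 0.318% in sh-CBX7 and 0.365% in sh-Control, and as a share of all counts with 1 library left out 0.301 to 0.311% in sh-CBX7 and 0.347 to 0.354% in sh-Control. Over all genes, 3398 to 3953 were higher and 3584 to 4082 lower with 1 library left out. Likewise the log2 fold change of CBX7 ran from -0.77 to -0.65 and that of RNF26 from -0.94 to -0.78.

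Libraries with the same replicate number deviated together only weakly (correlations 0.0553, 0.0614 and 0.0353 across genes). Still, of the libraries of the other group, each correlated best with the one of its own number. Whether the number marks a shared batch was not tested. With the replicate block, 3972 genes were higher and 4126 lower, and NDUFS6, NDUFS7, NDUFA3, MT-ND1, MT-ND3, COX8A and TIMM44 gained a call (COX8A with an edgeR adjusted p of 0.0305). With no filter on low counts, NDUFS6, NDUFS7, NDUFA3, MT-ND3 and COX8A did. Complex IV had 10 genes lower under the offsets, against 6. NDUFV2 and NDUFA7 had under 15 counts per library, which limits what their values can show.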
